A study of Rattus norvegicus with 10 samples.

Results

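Rpe65, Myo7a, Mfrp, Gpr179 and Epas1 were examined in the lens capsules of rats, the membrane around the lens with the epithelial cells that adhere to it. They are 5 of the 3334 genes in the table the authors deposited. They were taken as a group because they, together with Col1a1, were the down-regulated genes that the study annotated to visual perception. A lower level in the cold-treated capsules, at the study's own thresholds for fold and adjusted p, was thus a condition for being chosen. The direction, the size of the differences, and the p-values and calls below are therefore not independent evidence. All animals were male Sprague-Dawley rats (strain SD) aged 6 weeks, and each sample pooled the 2 capsules of 1 rat. In the Hypothermia Group (n = 5), isolated lenses stayed in Hibernate-A medium at 4°C for 8 h before the capsules were removed. In the Normal Group (n = 5), the capsules were removed straight after the animals were killed. The cold and the time in medium outside the eye were therefore applied together, and their parts in any difference cannot be told apart.

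None of the 5 genes is known mainly for work in the lens. Rpe65 is the retinoid isomerase of the retinal pigment epithelium, which remakes 11-cis retinal for the photoreceptors. Myo7a is the unconventional myosin of Usher syndrome, which moves melanosomes in the pigment epithelium and serves the hair bundle of the inner ear. Mfrp is a membrane protein with a frizzled-related domain, found in the pigment epithelium and the ciliary epithelium and needed for normal eye growth. Gpr179 is an orphan receptor at the dendrite tips of ON-bipolar cells, where it anchors regulators of the mGluR6 cascade. Epas1 encodes HIF-2α, an oxygen-regulated transcription factor that is abundant in endothelium. The retina, pigment epithelium and ciliary body lie close to the lens but are not part of it. In a bulk sample, fewer cells of a type and less RNA per cell cannot be told apart.

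The promoters of Rpe65 and Mfrp are shown because both held TAATCC, the core recognised by OTX and CRX homeodomain factors of the eye, within the 250 bases before the transcription start, here on the reverse strand as GGATTA (in capitals). The sequences are from RefSeq on GRCr8, a later build than the Rnor_6.0 used for the counts, and run 5′ to 3′ along the gene at chr2:251425118-251425367 (plus strand) and chr8:53342284-53342533 (plus strand).
Rpe65: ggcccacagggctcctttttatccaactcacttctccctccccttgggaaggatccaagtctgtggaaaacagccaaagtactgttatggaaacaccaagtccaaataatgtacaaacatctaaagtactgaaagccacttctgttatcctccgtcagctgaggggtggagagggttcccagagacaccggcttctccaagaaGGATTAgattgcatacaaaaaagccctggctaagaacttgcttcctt
Mfrp: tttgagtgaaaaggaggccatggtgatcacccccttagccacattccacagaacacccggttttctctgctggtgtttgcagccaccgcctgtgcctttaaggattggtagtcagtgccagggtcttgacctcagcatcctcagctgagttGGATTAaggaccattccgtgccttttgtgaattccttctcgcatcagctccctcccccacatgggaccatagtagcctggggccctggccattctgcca
The motif began 47 bases before the start of Rpe65 and 99 bases before that of Mfrp. It was found on either strand in 6.34% of 33469 rat promoters of this length. The promoters of Myo7a and Epas1 did not hold these letters, and RefSeq gave a promoter for 4 of the 5 genes, with no entry for Gpr179. The E-box CACGTG, a palindrome, was in 5.59% of promoters and in none of these 4. The motifs were chosen with these sequences in view, and a match is a description of letters only.

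Reads were deposited as whole counts per gene, and a normalized count below is a count divided by the authors' size factor for that rat. The counts of the table's genes summed to between 9026144 and 12415121 in the Hypothermia rats and between 4792595 and 8177803 in the Normal rats. Size factors ran the other way, 0.741 to 0.975 for Hypothermia rats and 1.08 to 1.25 for Normal rats. The table held only genes that differed between the groups in the authors' own comparison. Lens markers made up much of its counts in the Hypothermia rats, and 23 of 26 were in it. Their summed normalized counts ranged from 5.55e+06 to 1.18e+07 in the Hypothermia rats against 8.62e+05 to 3.97e+06 in the Normal rats. Of these 23, 21 rose and none fell in edgeR's quasi-likelihood test, where 9.81% of the 3222 genes tested rose. In the fit without a filter, 16 to 18 of them were called higher under TMM, median-of-ratios and upper-quartile scaling. Under scaling by the totals of the table's genes, where 36.9% of 3334 genes were called lower, 6 of them were called higher and 1 lower. The part of this shift in the values of the 5 eye genes was not tested.

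Per gene length, Mfrp and Epas1 were the most abundant of the 5 genes and the other 3 were close to the detection limit. In the Normal Group, FPKM (fragments per kilobase of gene, scaled by the same size factors) was 11.7 ± 10.7 for Mfrp (SD, n = 5) and 4.11 ± 0.941 for Epas1. It was 0.454 ± 0.234 for Rpe65, 0.275 ± 0.218 for Gpr179 and 0.107 ± 0.0644 for Myo7a. The order was the same in the Hypothermia Group, with 2.81 ± 2.07 for Mfrp, 1.85 ± 1.27 for Epas1, 0.0778 ± 0.0938 for Rpe65, 0.0450 ± 0.0710 for Gpr179 and 0.0159 ± 0.0141 for Myo7a. Only Epas1 and Rpe65 were neighbours in this order without overlap between rats: in the Normal Group the lowest Epas1 value was 3.48 and the highest Rpe65 value 0.725. The ranges of Mfrp and Epas1 overlapped, as did those of Rpe65 and Gpr179 and those of Gpr179 and Myo7a.

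**Figure D1:**
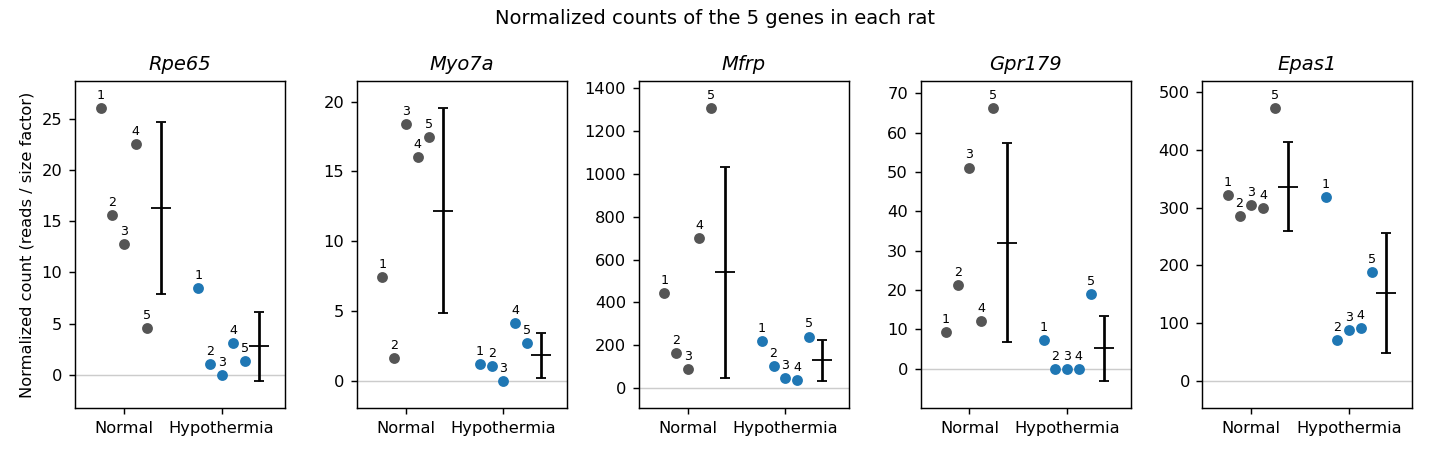
Normalized counts (reads divided by size factor, linear axis with 0 marked, a separate scale for each gene) of the 5 genes in the 5 Normal rats (grey) and the 5 Hypothermia rats (blue). Numbers beside points are replicate numbers and black bars are mean ± SD. In every gene the groups overlap: the highest Hypothermia rat lies above the lowest Normal rat.

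Rpe65 (chr2:266141581-266169197, plus strand, Rnor_6.0, protein coding) fell in the Hypothermia Group, on very few reads. The Normal rats 1 to 5 had 26.0, 15.6, 12.8, 22.5 and 4.60 normalized counts, from 28, 19, 16, 28 and 5 reads. The Hypothermia rats had 8.48, 1.05, 0, 3.08 and 1.35 normalized counts, from 7, 1, 0, 3 and 1 reads. Every Hypothermia rat but replicate 1 lay below the lowest Normal rat, which was Normal replicate 5. The means were 2.79 ± 3.37 and 16.3 ± 8.40 normalized counts, a 5.84-fold difference (two-sided exact permutation test, p = 0.0159, n = 5 rats a group, with 0.00794 the smallest p possible). The log2 fold change was −2.49 (SE 0.70, 95% confidence interval −4.02 to −0.96) and the Benjamini-Hochberg adjusted p 0.0409, by the quasi-likelihood test of edgeR. This value came from the fit without a filter on low counts, since the filter left Rpe65 out. The call was lost when any 1 of 8 rats was left out, with adjusted p from 0.0586 to 0.0979, and held without Hypothermia replicate 1 (−3.41, adjusted p = 0.0221) or Normal replicate 5 (−2.72, adjusted p = 0.0355).

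The other genes of retinoid handling and of pigment cells were mostly not in the table. Of 26 visual cycle genes, 3 were in it: Rpe65, Rlbp1 and Ttr. Rlbp1, the retinaldehyde carrier of pigment epithelium and Müller glia, had 142 ± 28.8 normalized counts in the Hypothermia Group and 191 ± 17.6 in the Normal Group (log2 fold change −0.43, adjusted p = 0.0881, edgeR). Ttr, the thyroxine and retinol-binding protein carrier, had 22.2 ± 20.0 and 70.8 ± 35.8 (−1.68, adjusted p = 0.144). Of 28 markers of pigment epithelium and pigment cells, 7 were in the table and 6 of those had negative log2 fold changes, of which Rpe65 and Pmel passed the test in the fit without the filter. Over the whole table, that fit gave negative values for 37.0% of 3334 genes and called 2.01% lower. Pmel, the fibril protein of melanosomes, fell from 104 ± 43.9 to 30.6 ± 18.4 normalized counts (−1.77, SE 0.42, adjusted p = 0.0202). Tyr, the first enzyme of melanin synthesis, had 3.74 ± 3.06 in the Hypothermia Group and 18.4 ± 12.2 in the Normal Group (−2.20, adjusted p = 0.0601). Rpe65 and Tyr each had no read in 1 Hypothermia rat. The 7 markers summed to between 557 and 1150 normalized counts in the Hypothermia rats and between 402 and 866 in the Normal rats, with Myrip, which rose, the largest part of the former. Under every scaling tried, 6 of the 7 markers stayed negative, though under totals the median over all genes tested was itself −0.87.

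Myo7a (chr1:163001875-163071508, minus strand) also fell and was the scarcest of the 5 genes per length. The Normal rats had 7.43, 1.64, 18.4, 16.1 and 17.5 normalized counts, from 8, 2, 23, 20 and 19 reads. The Hypothermia rats had 1.21, 1.05, 0, 4.10 and 2.70, from 1, 1, 0, 4 and 2 reads. Normal replicate 2 was as low as the Hypothermia rats, and the other 4 Normal rats lay above all of them. The means were 1.81 ± 1.60 and 12.2 ± 7.33 normalized counts, a 6.73-fold difference (two-sided exact permutation test, p = 0.0238, n = 5 rats a group). The log2 fold change was −2.64 (SE 0.75, 95% confidence interval −4.28 to −1.01) with an adjusted p of 0.0419 by edgeR without the filter, which had left out this gene too. The call was lost when any 1 of 7 rats was left out, with adjusted p up to 0.0972, and it held without Hypothermia replicate 4, Normal replicate 1 or Normal replicate 2. Without Normal replicate 2 the log2 fold change was −2.92 and the adjusted p 0.0190.

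Of 22 genes for motor, Usher and melanosome partners of Myo7a, 7 were in the table, and they did not move in 1 direction. Myrip, the adaptor that joins Myo7a to Rab27a on melanosomes, rose from 178 ± 96.0 to 570 ± 215 normalized counts (log2 fold change 1.68, SE 0.38, adjusted p = 0.0196, edgeR). Scaled by the totals of the table's genes, Myrip was no longer called (0.52). Mlph, the adaptor that joins Rab27a to myosin Va, had 3.49 ± 3.68 in the Hypothermia Group and 24.3 ± 15.7 in the Normal Group (−2.75, adjusted p = 0.0538, fit without the filter). The myosins Myo5a and Myo6 had adjusted p under 0.05 with small fold changes, −0.47 (adjusted p = 0.00672) and −0.71 (adjusted p = 0.0242). Calm2, whose protein serves as a light chain of such myosins, had 0.42 (adjusted p = 0.0140), and its sign turned when counts were scaled by the totals of the table's genes. Among all 3222 genes tested, 17.2% had an adjusted p under 0.05 at any negative fold change and 49.1% at any positive one.

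Mfrp (chr8:48437918-48443421, plus strand) had the most reads of the 5 genes over all rats and the widest spread between Normal rats. The Normal rats had 441, 164, 87.1, 699 and 1307 normalized counts, from 475, 200, 109, 870 and 1421 reads. The Hypothermia rats had 220, 104, 46.7, 36.9 and 240, from 182, 99, 37, 36 and 178 reads. Normal replicate 5 was 15.0 times Normal replicate 3, and Normal replicates 2 and 3 lay inside the Hypothermia range. The means were 130 ± 95.7 and 540 ± 492 normalized counts, a 4.16-fold difference (two-sided exact permutation test, p = 0.103, n = 5 rats a group). The difference of the means, −410, was smaller in size than the SD of the Normal Group. The log2 fold change was −2.07 (SE 0.76, 95% confidence interval −3.76 to −0.38) with an adjusted p of 0.135 by edgeR. Without Normal replicate 5 it was −1.43 (adjusted p = 0.441), and the call was missed in all 10 fits with 1 rat left out.

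Of 24 ciliary and iris epithelium markers, 9 were in the table, and none passed the test in either direction, against 1.43% of the 3222 genes called lower. Slc6a15, an amino acid transporter, was nearest to the call, with 29.1 ± 7.83 normalized counts in the Hypothermia Group and 60.5 ± 24.3 in the Normal Group (log2 fold change −1.04, adjusted p = 0.0509, edgeR). It was called lower under TMM, median-of-ratios and upper-quartile scaling, where 6.63%, 7.02% and 7.2% of 3334 genes were called lower. Under scaling by totals 7 of the 9 markers were called lower, as were 36.9% of all 3334 genes. Of these 9, 8 had negative log2 fold changes, as had 37.0% of 3334 genes in the fit without a filter. The median of the 9 was −1.84, against 0.36 over all genes tested. Slco1c1, a thyroxine transporter, had 26.0 ± 31.4 normalized counts in the Hypothermia Group and 174 ± 174 in the Normal Group (−2.75, adjusted p = 0.135, edgeR). Clic6, an intracellular chloride channel protein, had 20.5 ± 14.2 and 73.5 ± 59.5 (−1.84, adjusted p = 0.174), and Cdh6, a classical cadherin, 12.9 ± 3.72 and 29.4 ± 16.1 (−1.17, adjusted p = 0.112). Slc4a5, the bicarbonate cotransporter of the ciliary epithelium, was far more abundant, with 1629.9 ± 456 and 2562 ± 631 (−0.65, adjusted p = 0.0798). Wls, which carries Wnt proteins to the cell surface, was the 1 marker with a positive value (0.25, adjusted p = 0.141), and its sign turned under every other scaling. The 9 markers summed to between 12869 and 13834 normalized counts in the Hypothermia rats and between 11872 and 13889 in the Normal rats, most of it Wls. Of the 7 negative markers other than Mfrp, 3 were highest in Normal replicate 5, the rat with the most Mfrp. The share of all negative genes that were highest in this rat was not computed.

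Gpr179 (chr10:85274057-85289777, minus strand) had no read in 3 of the 5 Hypothermia rats. The Normal rats had 9.29, 21.4, 51.1, 12.0 and 66.2 normalized counts, from 10, 26, 64, 15 and 72 reads. The Hypothermia rats had 7.27, 0, 0, 0 and 18.9, from 6, 0, 0, 0 and 14 reads. Hypothermia replicate 5 lay above Normal replicates 1 and 4, and the other 4 Hypothermia rats lay below every Normal rat. The means were 5.23 ± 8.26 and 32.0 ± 25.3 normalized counts, a 6.12-fold difference (two-sided exact permutation test, p = 0.0317, n = 5 rats a group, and 0.0635 without Normal replicate 5). The log2 fold change was −2.68 (SE 0.97, 95% confidence interval −4.83 to −0.54) and the adjusted p 0.121 by edgeR, so the gene was not called. Without Hypothermia replicate 5 it was −4.13 with an adjusted p of 0.0429.

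Of 20 genes of the ON-bipolar cascade and its cells, 4 were in the table, and none passed the test. Of all 3334 genes, the fit without the filter called 2.01% lower and 338 genes higher. Grm6, the mGluR6 receptor upstream of this cascade, had 2.14 ± 4.12 normalized counts in the Hypothermia Group and 18.3 ± 16.2 in the Normal Group (log2 fold change −3.16, adjusted p = 0.0794, edgeR without the filter). Isl1, a transcription factor of ON-bipolar and other retinal neurons, had 0.540 ± 1.21 and 7.19 ± 6.84 (−3.61, adjusted p = 0.0616), with no read in 4 Hypothermia rats. Prkca, the kinase used as a rod bipolar marker and present in many other cells, had 225 ± 102 and 109 ± 44.2 (1.04, adjusted p = 0.0837), and its sign turned under scaling by totals. Grm6 and Isl1 followed Gpr179 from rat to rat, on counts that share many zeros. Over 10 rats after removal of the group means, r was 0.74 for each, while Prkca had 0.38. Without the 2 rats farthest from the median of Gpr179, r was 0.83 for Grm6, 0.80 for Isl1 and −0.02 for Prkca.

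Markers of other retinal neurons included genes that fell and genes that rose. Of 27 amacrine, horizontal and ganglion cell markers, 10 were in the table and 9 had negative log2 fold changes, of which 3 passed the test in the fit without the filter, where 37.0% of 3334 genes had negative values and 2.01% were called lower. Calb2 (calretinin) fell from 19.9 ± 7.29 to 0.540 ± 1.21 normalized counts, with no read in 4 Hypothermia rats (−5.08, SE 0.73, adjusted p = 0.00540, edgeR). Nefl, a neurofilament subunit, had no read in any Hypothermia rat and 14.2 ± 12.7 normalized counts in the Normal rats (adjusted p = 0.0193, fit without the filter). Tfap2b, an amacrine and horizontal cell transcription factor, fell from 18.5 ± 11.8 to 2.76 ± 3.60 (−2.75, adjusted p = 0.0478, fit without the filter). Pvalb, the tenth gene of the list, rose from 140 ± 86.7 to 532 ± 189 (1.93, adjusted p = 0.0144), though it was not called under scaling by totals (0.78). Of the 9 lower genes, 6 were highest in Normal replicate 5, which also had the most Gpr179. Genes with negative values in other lists were highest in that rat too: 2 of 5 pigment markers other than Rpe65, 2 of 5 Müller glia markers, 1 of 6 endothelial and mural markers, and 3 of 10 hypoxia-inducible factor targets. The share over all genes of the table was not computed. Of 26 photoreceptor markers only Slc24a2 was in the table, and it rose from 85.9 ± 83.3 to 583 ± 205 (2.78, adjusted p = 0.0124). Of 16 Müller glia and astrocyte markers, 7 were in the table, 5 with negative and 2 with positive log2 fold changes. Of these Slc1a2, a glutamate transporter, fell (−1.33, adjusted p = 0.0336), where 1.43% of 3222 genes fell, while the abundant Vim (0.45, adjusted p = 0.0835) and Dkk3 (0.42, adjusted p = 0.153) had positive values whose signs turned under scaling by totals. The 10 amacrine, horizontal and ganglion cell markers summed to between 404 and 972 normalized counts in the Hypothermia rats and between 276 and 786 in the Normal rats, most of it Pvalb in the former. The part of such cells in the Gpr179 values was not tested.

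Epas1 (chr6:10306405-10387265, plus strand) was the steadiest of the 5 genes in the Normal Group and much more variable in the Hypothermia Group. The Normal rats had 322, 285, 305, 299 and 473 normalized counts, from 347, 347, 382, 372 and 514 reads. The Hypothermia rats had 319, 70.4, 88.3, 91.2 and 189, from 263, 67, 70, 89 and 140 reads. Hypothermia replicate 1 lay within the Normal range, and the other 4 Hypothermia rats lay below every Normal rat. The coefficient of variation was 22.9% in the Normal Group and 68.9% in the Hypothermia Group. The means were 151 ± 104 and 337 ± 77.1 normalized counts, a 2.22-fold difference (two-sided exact permutation test, p = 0.0317, n = 5 rats a group, and 0.0635 without Normal replicate 5). The log2 fold change was −1.16 (SE 0.38, 95% confidence interval −2.01 to −0.31) with an adjusted p of 0.0890 by edgeR, so the gene was not called. Without Hypothermia replicate 1 it was −1.63 with an adjusted p of 0.0139, and it was called under each of the scalings derived from the table itself, from −1.45 with TMM to −2.42 with totals.

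Of 17 genes of the hypoxia-inducible factor pathway, 9 were in the table, and none passed the call on both p and fold. In the filtered fit, 1.43% of 3222 genes were called lower and 9.81% higher. Hif3a, the third α subunit, had 6.43 ± 3.71 normalized counts in the Hypothermia Group and 25.8 ± 21.4 in the Normal Group (log2 fold change −1.99, adjusted p = 0.0930, edgeR without the filter). The genes of the ubiquitin ligase that removes α subunits under oxygen had small positive values: Rbx1 0.53 (adjusted p = 0.00540), Eloc 0.60 (adjusted p = 0.00906), Elob 0.58 (adjusted p = 0.0225) and Cul2 0.25 (adjusted p = 0.0945). Egln1, the main prolyl hydroxylase that marks α subunits for this ligase, had 0.32 (adjusted p = 0.0434), and its hypoxia-inducible relative Egln3 had −0.54 (adjusted p = 0.0271). Cited2, which competes with the α subunits for the coactivators Crebbp and Ep300, had −0.42 (adjusted p = 0.0293). These sizes compare with a median of 0.36 over all genes tested. Of the 3222 genes tested, 49.1% had an adjusted p under 0.05 at any positive fold change and 17.2% at any negative one. The 5 positive signs among the pathway genes all turned under scaling by totals, and that of Cul2 turned under TMM as well.

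Known hypoxia-inducible factor target genes were called in both directions. Of 32 targets, 14 were in the table and 10 of these had negative log2 fold changes, against 37.0% of all 3334 genes. After the filter 13 were tested, of which 3 rose and 3 fell, against 9.81% and 1.43% of all 3222 genes. In the fit without a filter, which called 4 lower and 3 higher, the calls were 4 lower and 1 higher under TMM and 10 lower and 0 higher under totals. Of all 3334 genes, 2.01% were called lower in that fit, 6.63% under TMM and 36.9% under totals. Hmox1, which breaks down haem, rose (log2 fold change 1.80, adjusted p = 0.0172, edgeR), as did Ndrg1, a stress-response gene (1.75, adjusted p = 0.0494), and Pgk1, a glycolytic enzyme (1.04, adjusted p = 0.0121). Among those that fell were Cxcl12, a chemokine (−1.25, adjusted p = 0.0448), and Ccnd1, cyclin D1 (−1.03, adjusted p = 0.0341). Under TMM scaling Pgk1 and Ndrg1 were no longer called, and under totals Pgk1 changed sign. Slc2a1, the glucose transporter GLUT1 and the most abundant lower target, had −0.33 (adjusted p = 0.0993).

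Endothelial and mural cell markers were lower in sum in the Hypothermia Group, beside Epas1. Of 26 such markers 6 were in the table, all with negative log2 fold changes, where 37.0% of 3334 genes had negative values in the fit without a filter. The median of the 6 was −0.74, against 0.36 over all genes tested. The 6 stayed negative under every scaling, though under totals the median over all genes tested was itself −0.87. The summed normalized counts of the 6 markers ranged from 1341 to 1829 in the Hypothermia rats and from 2346 to 2979 in the Normal rats, without overlap. Pdgfrb was the largest part of both, with means of 589 in the Hypothermia Group and 1076 in the Normal Group. Tek had 206 and 276, and Vwf 159 and 243. How often sums over other sets of genes would not overlap was not computed. Taken singly, 2 of the 6 had every Hypothermia rat below every Normal rat, as had 16.6% of the 3334 genes. Notch3, a receptor of mural cells that is also found elsewhere, fell from 686 ± 258 to 273 ± 70.0 normalized counts (−1.33, SE 0.26, adjusted p = 0.0109, edgeR). It was the 1 marker of the 6 that fell, where 1.43% of 3222 genes fell. Pdgfrb, the pericyte receptor, had −0.87 (adjusted p = 0.0114). Tek and Vwf, markers of endothelium itself, had −0.43 (adjusted p = 0.0866) and −0.61 (adjusted p = 0.104). After removal of the group means, r with Epas1 over 10 rats was 0.39 for Notch3, 0.37 for Tek and 0.14 for Tagln. It was 0.05 for Pdgfrb, 0.00 for Vwf and −0.09 for Cspg4. Whether such cells bear on the Epas1 values was not tested.

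Taking the 5 genes as a group, 2 were called lower, Rpe65 and Myo7a, both in the fit without a filter, where 2.01% of 3334 genes were called lower. In the filtered fit 3 of the 5 were tested and none was called at the adjusted p and fold required, where 1.43% of 3222 genes were called lower. All 3 had an unadjusted p under 0.05, as had 3221 of the 3222 genes tested in this selected table. DESeq2 with its own size factors called 4 of the 5 lower, and 10.2% of 3334 genes. None of the 5 had every Hypothermia rat below every Normal rat, against 16.6% of the 3334 genes. All 5 log2 fold changes were negative under each of the scalings and tests run, which the choice of the genes had fixed.

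**Figure D2:**
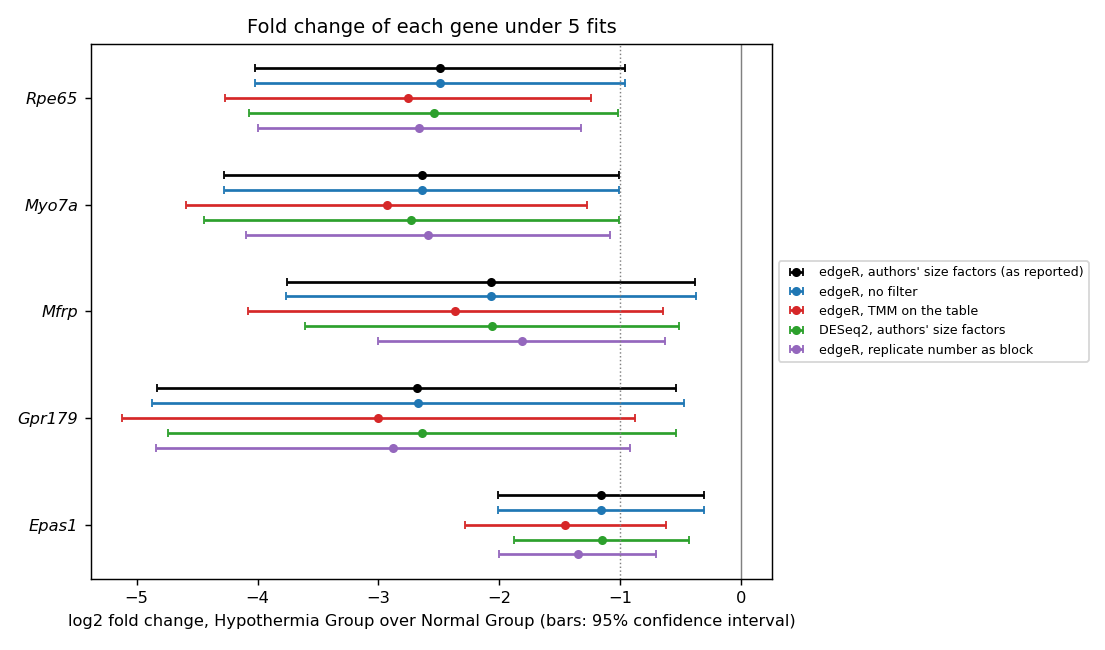
Log2 fold change (Hypothermia Group over Normal Group, linear axis in log2 units) of each gene under 5 fits, with 95% confidence intervals: edgeR with the authors' size factors, without a filter, with TMM or with the replicate block, and DESeq2 with the authors' size factors. Every interval lies below 0, the solid line. For Mfrp, Gpr179 and Epas1 the intervals of all 5 fits cross −1, the dotted line at the fold needed for a call. For Rpe65 the interval without a filter, plotted for both edgeR fits with the authors' size factors, reaches −0.96 and also crosses −1. The fit scaled by totals, not plotted, had upper limits of −1.37, −1.89 and −1.64 for Mfrp, Gpr179 and Epas1.

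The 5 genes did not vary together from rat to rat. Deviations were taken as log2(normalized count + 1) minus the mean of the rat's own group, and correlations over the 10 rats are given as descriptions, since all genes of a rat share 1 library. Gpr179 and Epas1 were the closest pair (r = 0.80, and 0.76 without the 2 rats farthest from the median), followed by Mfrp and Epas1 (0.62, and 0.66) and Mfrp and Gpr179 (0.44, and 0.63). Rpe65 had r from 0.02 to 0.38 with the other 4, and the 0.38 with Epas1 became −0.37 without the 2 farthest rats. Myo7a had r of at most 0.30 with any of the others. Normal replicate 5 was the highest Normal rat for Mfrp, Gpr179 and Epas1 and the lowest for Rpe65. Hypothermia replicate 1 was the highest of its group for Rpe65 and Epas1, and Hypothermia replicate 5 for Mfrp and Gpr179.

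**Figure D3:**
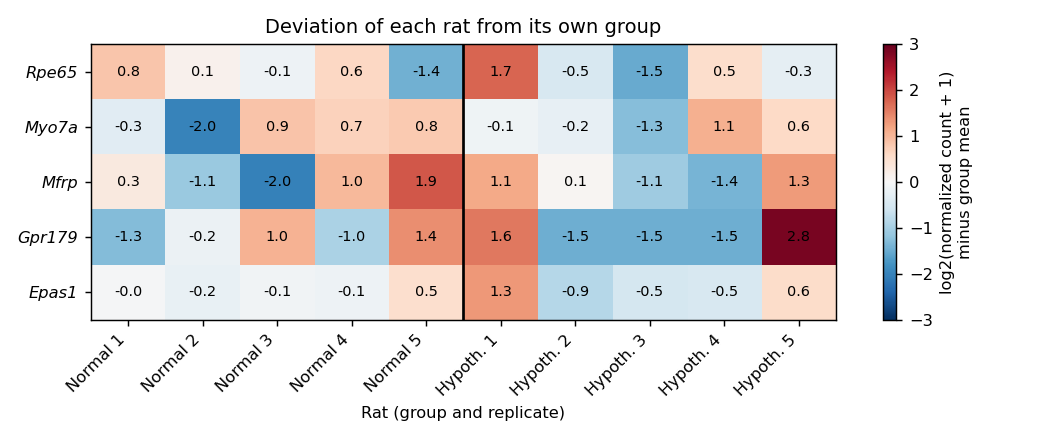
Deviation of each rat from the mean of its own group, as log2(normalized count + 1), for the 5 genes (lines) in the 5 Normal and 5 Hypothermia rats (columns), with red above and blue below the group mean. Normal replicate 5 is red for every gene but Rpe65, and Hypothermia replicate 1 is red for every gene but Myo7a.

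Mfrp was the 1 gene of the 5 with many close companions in the table. Among 2980 genes with a mean of at least 50 normalized counts, 29 had r over 0.9 with Mfrp, against 2 for Epas1 and 0 for each of the others. Rpe65, Myo7a and Gpr179 had only 12, 8 and 20 Hypothermia reads in total, against 532 for Mfrp and 629 for Epas1. These 3 were thus not compared with Mfrp on equal terms. The nearest to Mfrp were St3gal1, a sialyltransferase (r = 0.99), Thbs2, an antiangiogenic matrix protein (0.98), and Ephx1, an epoxide hydrolase (0.98). Like Mfrp, none of them was called: St3gal1 had 737 ± 179 and 1335 ± 515 normalized counts (log2 fold change −0.86, adjusted p = 0.0667, edgeR), Thbs2 had 35.9 ± 25.2 and 212 ± 246 (−2.57, adjusted p = 0.121), and Ephx1 had 162 ± 54.3 and 330 ± 172 (−1.03, adjusted p = 0.106). The 8 other ciliary markers had r with Mfrp from −0.53 to 0.90: Slco1c1 (0.90), Clic6 (0.89) and Cdh6 (0.80) were closest, Slc39a12 had 0.50 (0.08 without the 2 farthest rats), Slc6a15 0.44, Slc4a5 0.43, Myoc −0.18 and Wls −0.53. The 7 pigment genes had r from −0.02 to 0.87, with Pmel the highest, Rpe65 at 0.07 and Tyr at 0.19.

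**Figure D4:**
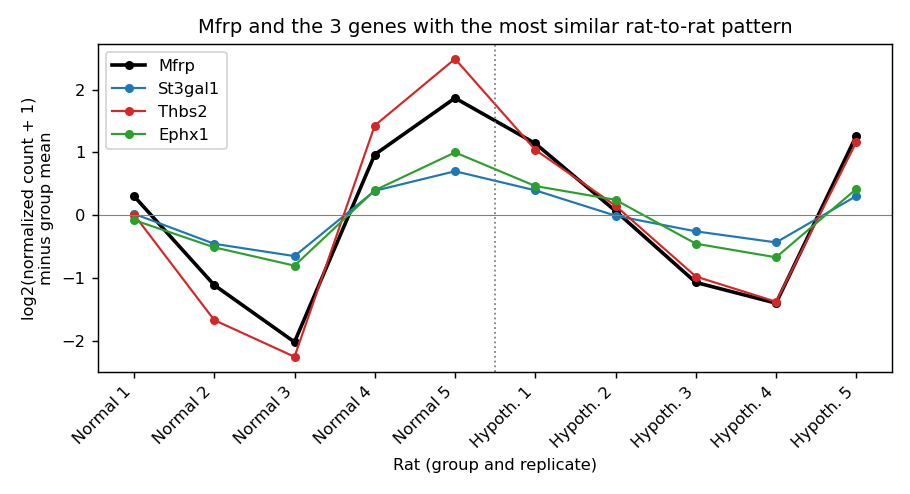
Deviation of each rat from its own group's mean, as log2(normalized count + 1), for Mfrp and the 3 genes most like it. Lines only join the points of 1 gene, since rats have no order. All 4 genes are highest in Normal replicate 5 and lowest in Normal replicate 3, and Thbs2 has swings as wide as those of Mfrp while St3gal1 and Ephx1 have narrower ones.

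The nearest genes of the other 4 were less close. For Epas1 they were AABR07027870.1 (r = 0.92), AABR07037520.1 (0.90) and Prr22 (0.86). For Gpr179 they were Cav2, a caveolar protein (0.86), Stc1, a secreted glycoprotein (0.85), and Slc6a11, a GABA transporter (0.83), and only 1 of these 3 stayed among the nearest when the pseudocount was 5 in place of 1. For Myo7a they were a gene without a name at chr6:11074015-11080221 (0.88), Wipf3 (0.88) and the amino acid transporter Slc36a1 (0.87). For Rpe65 they included LOC103694328 (0.83) and Ttpal (0.80). Among the amacrine and horizontal cell markers, Tfap2b had r = 0.84 with Gpr179, Cplx3, a complexin of retinal synapses, 0.83, and Calb2 0.81, all on few reads.

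**Figure D5:**
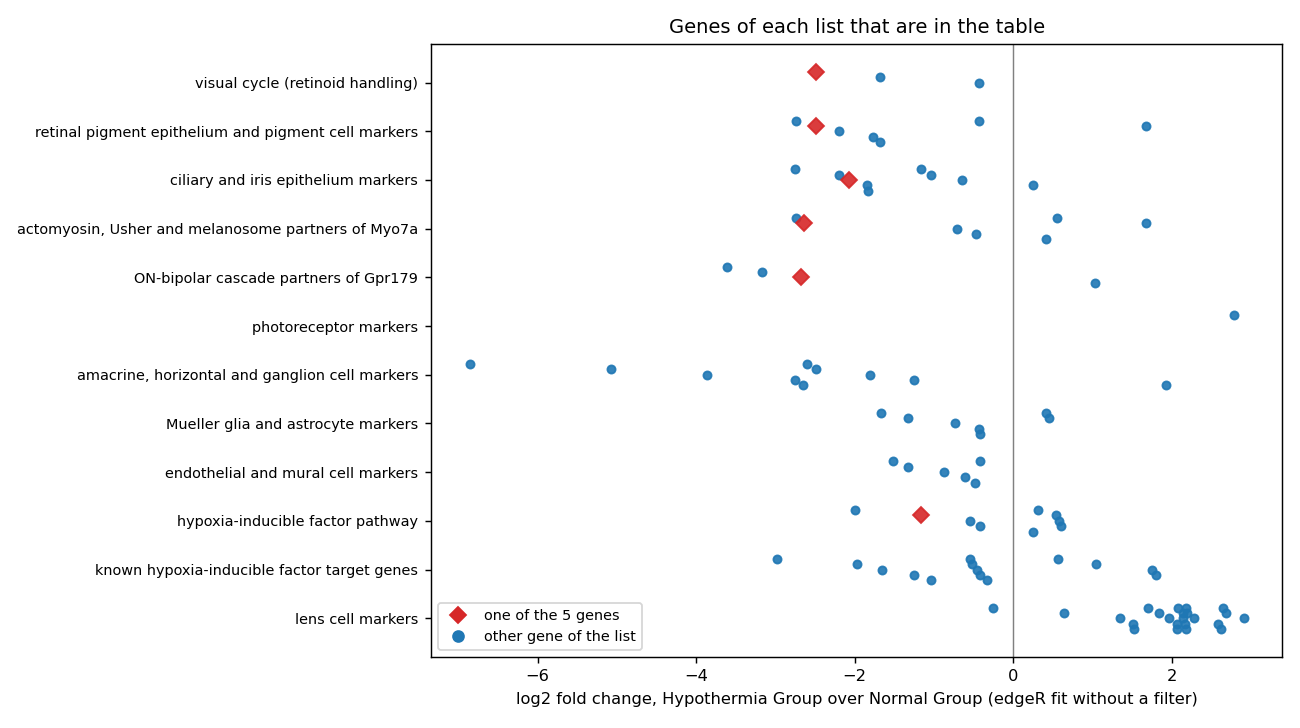
Log2 fold changes (Hypothermia Group over Normal Group, edgeR without a filter) of every gene of each list that was in the table, with the 5 genes as red diamonds and the others as blue circles. The pigment, ciliary and retinal neuron lists lie mostly to the left of 0 and 22 of 23 lens markers to the right, while the point near −7 is Nefl, whose fitted value has no meaning as a size because no Hypothermia rat had a read.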

How the data were processed

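RNA-seq of lens capsules was analysed, with 5 rats in each of the Hypothermia and Normal Groups. Per the labels and the study's methods, the authors used HISAT2 2.0.5 to align paired-end reads against Rnor_6.0, and the deposited counts are whole reads per gene from featureCounts 1.5.0-p3. Strand use in counting was not given in the sources used here. RNA was accepted at RIN of 5.8 or more. For FPKM, the authors divided these counts by gene length and a scale factor for each rat, and deposited the result. The deposited group means, fold changes and p-values of the authors' own DESeq2 1.16.1 comparison were not used. The table held 3334 genes selected by that comparison, 124 without a name and 8 names more than once.

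Size factors were recovered from the ratio of counts to FPKM (largest relative error 5.20e-08, geometric mean 1). The model was fitted to the counts in R 4.3.3 by edgeR 4.0.16 (robust dispersion, glmQLFit and glmQLFTest after filterByExpr), with group as the only factor. P-values were adjusted by Benjamini and Hochberg over 20000 genes, a round number above the number of genes the study counts as expressed, because the table holds changed genes only. Rpe65 and Myo7a, which the filter left out, were taken from the same fit without it, as were other genes so marked. A gene was called, and is said to have risen or fallen, at a log2 fold change over 1 in size with an adjusted p under 0.05. Single genes were also compared by two-sided exact permutation tests over 252 assignments of 10 rats. These 5 p-values were not adjusted, and they belong to genes chosen because they differed in these same data. The test was checked on simulated counts of the table: at an adjusted p under 0.05 over the genes tested, with no condition on the fold change, it found 98% of 200 genes changed by 1 on the log2 scale and 11 unchanged ones, of 3253 tested. The simulation gave every gene a dispersion of 0.05 and drew the changed genes from those with a mean of at least 50 normalized counts. The dispersions of the 5 genes ran from 0.17 (Epas1) to 1.21 (Gpr179), and Rpe65, Myo7a and Gpr179 had lower means. The 98% is thus not the power for these 5 genes. Figures were drawn with matplotlib 3.10.9.

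Depth was known for the table's genes only. Each rat is 1 animal, and same-numbered rats of the 2 groups are different animals. The 5 genes, the gene lists and the tests were chosen with earlier results of these data known. Named genes were the 5, the 3 genes of highest group-centred correlation with each (mean of at least 50 normalized counts, pseudocount 1), listed pathway partners, and from marker and target lists the genes called with the largest changes and those of the highest level. Other list genes named beside a rat-to-rat pattern or as defining markers were chosen after their values were seen. Listed symbols outside the table were not analysed here. A few genes that this rule would name are not reported here. Promoters and motif counts were from RefSeq GRCr8, whose coordinates do not apply to Rnor_6.0. Alternatives were other scalings, filters and tests, a replicate block, other adjustments, and each rat left out in turn.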

Additional observations from a re-analysis of the deposited data

Results flagged for a closer look

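One value lay apart from its group. For Epas1, Normal Group replicate 5 had 473 normalized counts and the next highest Normal rat 322, a gap of 0.801 of the group's whole range, above Dixon's critical value of 0.710 for 5 samples. The 5 genes gave 10 groups to examine, and chance marks about 1 in 20 groups in this way. The same rat had the most Mfrp and Gpr179 of the Normal Group and the fewest Rpe65 reads. Without it the log2 fold change of Epas1 was −1.01 (adjusted p = 0.213, edgeR). The cause was not tested.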

How the results depend on the processing

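Every log2 fold change of the 5 genes stayed negative in the 23 other fits, and what changed was which side of the call a gene fell on. With 1 rat left out the log2 fold changes ranged from −3.41 to −2.20 for Rpe65, −3.21 to −2.36 for Myo7a, −2.41 to −1.43 for Mfrp, −4.13 to −2.24 for Gpr179 and −1.63 to −0.97 for Epas1, with 0 to 2 of the 5 called, 211 to 452 table genes called, 22 to 65 lower and 189 to 387 higher. The permutation p without Normal replicate 5, an alternative chosen after seeing the data, was 0.0635 for Gpr179 and for Epas1. Mfrp passed the call with totals of the table's genes as the scale (−3.31, permutation p = 0.00794), DESeq2 with its own size factors (−2.38), adjustment over the tested genes only (−2.07) and TMM with that adjustment (−2.36). Gpr179 passed with totals (−4.11), that adjustment (−2.68) and TMM with it (−3.00). Epas1 passed with TMM (−1.45, alone or with that adjustment), median-of-ratios factors (−1.48), upper-quartile factors (−1.48), totals (−2.42), DESeq2 with its own (−1.47) or the authors' size factors (−1.15) and that adjustment (−1.16). Of the 5 genes, 5 were called with totals, where 36.9% of all 3334 genes were called lower without a filter, 5 with that adjustment (6.36%), 5 with TMM and that adjustment (334 genes), and 4 with DESeq2 and its own factors (10.2%).

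The table is a list of changed genes, so scalings made from it shift all values: the median log2 fold change over all genes was 0.36 with the authors' size factors, 0.07 with TMM, 0.05 with median-of-ratios factors, 0.04 with upper-quartile factors and −0.87 with totals. Calls numbered 362 (46 lower, 316 higher, 87.3% higher) with the authors' factors. Lower and higher calls were 191 and 176 with TMM (48.0% higher), 204 and 173 with ratios (45.9%), 210 and 161 with upper quartiles (43.4%), and 1165 and 37 of 1202 with totals (3.08%). They were 341 lower of 579 with DESeq2 and its own factors (41.1% higher), 147 lower of 545 with DESeq2 and the authors' factors (73.0%), 147 lower with adjustment over the tested genes (71.9%) and 267 lower with TMM and that adjustment (48.2%). With the replicate number as a block, 14 genes were called lower (94.7% of 262 calls higher), Myo7a was not called (−2.59, adjusted p = 0.0657, edgeR) and Epas1 was (−1.35, adjusted p = 0.0456). The numbers mark different animals and did not pair them: correlations of same-numbered rats' deviations over 2981 genes were 0.03, −0.19, 0.01, −0.12 and 0.23, and 0 of 5 Hypothermia rats correlated best with their own number. With 8 to 12 Hypothermia reads in total for Myo7a and Rpe65, depth limits both.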
